A study of Mus musculus with 18 samples.

Results

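The nuclear genes for subunits of the oxidative phosphorylation machinery were examined in whole mouse retina after optic nerve crush, with and without deletion of Map3k12, the gene for dual leucine zipper kinase (DLK). Members were all genes on the array whose symbol marks them as a subunit of NADH dehydrogenase (the Nduf genes of the a, b, c, s and v classes), succinate dehydrogenase (Sdha to Sdhd), cytochrome bc1 (Uqcr), cytochrome c oxidase (Cox4 to Cox8) or ATP synthase (Atp5), with tissue isoforms included. Subunit genes whose symbols the rule does not match, such as Ndufab1 of complex I and Cyc1 of complex III, are not among the members. The rule found 84 genes with 113 probes, among 20144 genes that could be given a symbol. Of these, 82 were bright enough in the retina to be tested, among 25374 genes tested in all, a number that includes probes without a symbol. The untested members were Cox7b2, whose Cy5 signal was well above background on 2 of 17 arrays, and Cox8c, for which this was 0 of 17. By complex, 35 tested genes belonged to complex I, 4 to complex II, 8 to complex III, 18 to complex IV and 17 to complex V. Ndufa4 and Ndufa4l2, named for complex I, were counted with complex IV, where NDUFA4 is now placed.

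The knockout mice carried loxP-flanked Map3k12 alleles together with a tamoxifen-inducible Cre-ERT transgene under the broadly active CAG promoter (DLKlox:Crepos, here Cre-positive), and controls were littermates with the floxed alleles and no transgene (DLKlox:Creneg, here Cre-negative). All mice received tamoxifen at 10 to 12 weeks of age, and the retinas were taken 3 days after crush of the optic nerve, with uninjured eyes as the uncrushed samples. There were 5 Cre-positive crushed, 5 Cre-positive uncrushed, 3 Cre-negative crushed and 4 Cre-negative uncrushed arrays. On each, Cy5-labelled retinal RNA was set against a Cy3-labelled universal mouse reference RNA, and the dyes were not swapped. One further Cre-negative array had labels that disagree on whether the nerve was crushed, and it was left out of every comparison. The labels do not say whether arrays came from separate animals, so p-values measure the spread between these samples, and the small number of arrays limits their precision. The transgene is not restricted to neurons, the labels state that a small amount of DLK protein remains after tamoxifen, and each sample is a whole retina in which fewer cells of a type and less RNA per cell cannot be told apart.

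The complexes of the respiratory chain pass electrons to oxygen and build the proton gradient that ATP synthase, complex V, uses to make ATP. Most of their subunits are encoded in the nucleus and made in every cell. Several subunits of cytochrome c oxidase exist as pairs of a widely expressed form and a form made mainly in heart, skeletal muscle, testis or lung. Photoreceptors, whose inner segments are packed with mitochondria, and ganglion cells, whose unmyelinated axon segments within the eye are rich in them, depend heavily on this machinery.

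The arrays were printed on 5 slides, and 68.0 to 76.2% of probes per array had Cy5 well above background. Map3k12 averaged 2.04 ± 0.20 in Cre-positive crushed, 1.998 ± 0.16 in Cre-positive uncrushed, 2.51 ± 0.17 in Cre-negative crushed and 2.43 ± 0.16 in Cre-negative uncrushed retinas on the log2 scale (SD). The difference of -0.43 between Cre-positive and Cre-negative uncrushed retinas had an adjusted p of 0.881, and that of -0.47 between crushed retinas 0.061. Their unadjusted p-values in limma were 9.80e-04 and 9.16e-04. Whether the Map3k12 probe lies within the deleted part is not given in the sources used here. Esr1 is the gene of the estrogen receptor, of which Cre-ERT carries a part. It was higher in Cre-positive retinas by 3.05 without crush (adjusted p = 6.06e-09) and by 3.71 after crush (adjusted p = 3.12e-10). On crush, Esr1 rose by 0.72 in Cre-positive retinas (adjusted p = 0.0246 in limma) and changed by 0.06 in Cre-negative ones (adjusted p = 0.927). Its probe A_55_P2030883 read 1.80 to 3.31 in Cre-positive and -0.84 to -0.50 in Cre-negative retinas, while its other probes overlapped between genotypes. One Cre-positive uncrushed array (replicate 4) had a mean of 2.08 over markers of cornea, iris and ciliary body, against -0.57 to 0.20 on the other fitted arrays. A Cre-positive crushed array (replicate 5) had a mean of 1.33 over lens markers, against 0.17 to 0.59.

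Cox6a2 was the only subunit gene to pass the test as higher after crush in Cre-negative retinas, and its crush response was smaller in Cre-positive ones. It encodes the heart and skeletal muscle isoform of subunit 6A of cytochrome c oxidase. Its log2 ratio of retina over reference was -3.77, -4.10, -3.88, -3.75 and -3.66 in the Cre-positive crushed retinas and -4.15, -4.07, -4.11, -4.11 and -3.98 in the Cre-positive uncrushed retinas. In the Cre-negative crushed retinas it was -2.43, -2.59 and -2.39, and in the Cre-negative uncrushed retinas -4.22, -4.50, -4.36 and -4.25. The Cre-negative crushed arrays stood well above all others, and the Cre-positive groups overlapped through a single crushed array, replicate 2.

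In Cre-positive retinas the crush difference was 0.25 on the log2 scale (95% interval 0.10 to 0.41, adjusted p = 0.173 in limma's moderated test over all genes), and without replicate 2 of the crushed arrays it was 0.32 with an adjusted p of 0.0321. The rise of Cox6a2 on crush in Cre-negative retinas was 1.86 (SE 0.09, 95% interval 1.67 to 2.05), or 3.64-fold, with an adjusted p of 3.99e-10. It ranked 7th of all tested genes by p-value and was the 12th largest rise. The crush response was smaller by 1.61 on the log2 scale in Cre-positive than in Cre-negative retinas (SE 0.12, adjusted p = 3.86e-07). Between crushed retinas, Cox6a2 was lower in Cre-positive ones by 1.36 (SE 0.09), or 2.57-fold, with an adjusted p of 2.44e-08. Between uncrushed retinas the difference of 0.25 in favour of Cre-positive ones did not pass (adjusted p = 0.881).

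The retinal channel differed between the groups and the reference channel did so far less. The scanner's processed Cy5 signal of the Cox6a2 probe (A_51_P509997) averaged 397 in Cre-positive crushed, 282 in Cre-positive uncrushed, 1248 in Cre-negative crushed and 253 in Cre-negative uncrushed retinas. The reference Cy3 signal averaged 7787, 7246, 7667 and 7749 on the same arrays. The Cy5 signal was well above background on all 17 arrays, and the reference signal was the brighter one on each. Within single slides the crush difference was 0.30, 0.50, 0.30 and -0.12 on the 4 slides that held both Cre-positive states, and 2.11, 1.83 and 1.77 on the 3 slides with both Cre-negative states. The Cre-positive minus Cre-negative difference between crushed retinas was -1.26 and -1.35 on the 2 slides that allowed it.

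Cox6a1, the form of the same subunit made in most tissues, did not pass in any comparison. Its log2 ratio was 1.44, 1.44, 1.54, 1.47 and 1.54 in Cre-positive crushed and 1.57, 1.57, 1.65, 1.59 and 1.53 in Cre-positive uncrushed retinas. It was 1.47, 1.48 and 1.41 in Cre-negative crushed and 1.42, 1.57, 1.54 and 1.51 in Cre-negative uncrushed retinas. The values of all groups lay close together. The crush difference was -0.09 (95% interval -0.18 to 4.74e-04) in Cre-positive and -0.06 (-0.17 to 0.05) in Cre-negative retinas.

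**Figure D1:**
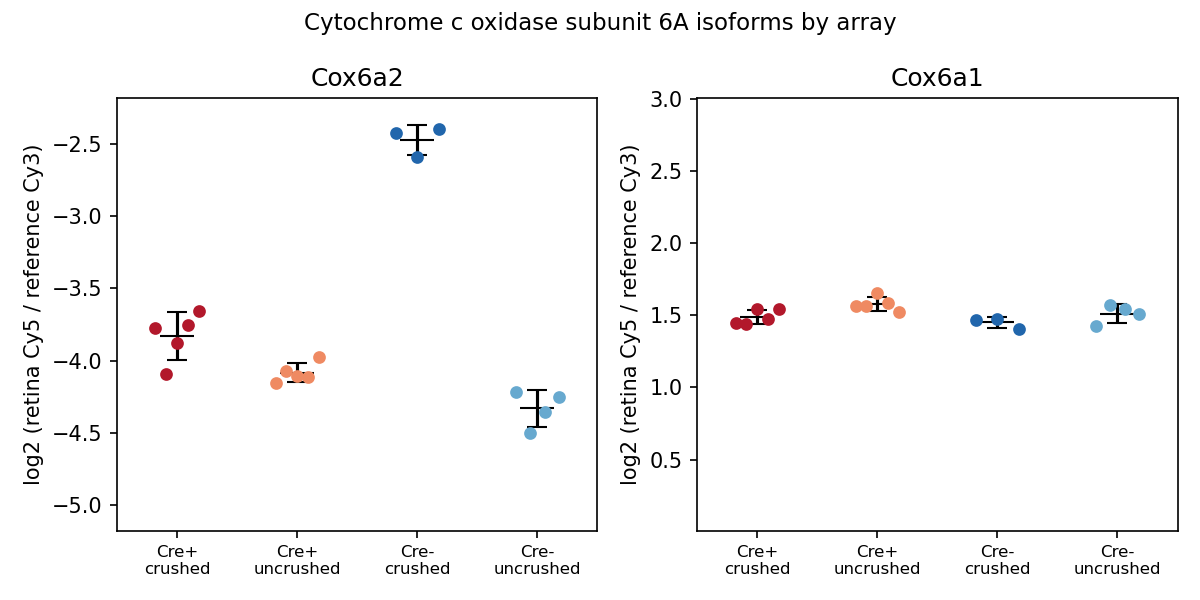
Log2 ratio of retina (Cy5) over reference (Cy3) for Cox6a2 and Cox6a1 on each array, by group; points are arrays, and bars are the mean and SD. Both panels span the same range of log2 units, and Cox6a2 in Cre-negative crushed retinas (-2.59 to -2.39) lies above every other group.

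Cell type markers on the same arrays gave the following values. Of 14 tested markers of skeletal and heart muscle, 0 were higher after crush in Cre-negative retinas at an adjusted p under 0.05 in limma. Over all genes, 2.15% passed in either direction. At an unadjusted p under 0.05, 2 muscle markers were higher, beside 7.56% of all genes. The median change of the 14 markers was 0.05, with 13 above 0. Pvalb, a calcium buffer also made by retinal neurons, fell by 1.10 (adjusted p = 4.94e-06). The mean over the muscle list was -0.78 to -0.70 in Cre-positive crushed and -0.77 to -0.72 in Cre-positive uncrushed retinas. In Cre-negative retinas it was -0.79 to -0.77 after crush and -0.80 to -0.75 without it, and the fast myosins Myh1 and Myh4 were not well above background on any array. Of 12 ganglion cell markers, 3 fell past the test after crush in Cre-positive retinas (median -0.27), beside 0.769% of all genes in either direction. In Cre-negative retinas 9 fell (median -0.69), beside 2.15% of all genes. Of 10 microglia and macrophage markers, 9 rose after crush in Cre-positive retinas (median 0.71) and 4 in Cre-negative retinas (median 0.51), beside the same shares. All 10 were above 0 in both genotypes. For the difference between crush responses 0 passed in limma, beside 0.418% of all genes. At an unadjusted p under 0.05, 1 of the 10 was higher, beside 4.24% of all genes. The part of ganglion cell and microglial changes in the values of the subunit genes was not tested.

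Apart from Cox6a2, the crush responses of the subunit genes were small. After crush in Cre-positive retinas 0 of 82 members passed an adjusted p of 0.05 in limma, beside 0.769% of all tested genes. After crush in Cre-negative retinas 2 of 82 passed, beside 2.15% of all genes, and they were Cox6a2, which rose, and the complex I gene Ndufa12, which fell. At an unadjusted p under 0.05, 20 members were lower and 1 was higher in Cre-positive crushed retinas, beside 3.13% and 6.42% of all genes. In Cre-negative crushed retinas 6 were lower and 1 higher, beside 5.81% and 7.56% of all genes.

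The members leaned slightly downward as a group. In Cre-positive retinas the median log2 change on crush was -0.09, and 71 of 82 members were below 0, while over all genes the median was 3.62e-04 and 49.9% were below 0. In Cre-negative retinas the median was -0.04 and 64 of 82 were below 0, beside a median of 0.0015 and 49.4% below 0 over all genes. Within slides the members' median was -0.13, -0.07, -0.06 and -0.06 in Cre-positive retinas and -0.01, -0.12 and -0.02 in Cre-negative retinas. Rod markers had a median of -0.08 and cone markers of -0.07 in Cre-positive retinas, and 0.0045 and 0.01 in Cre-negative retinas, with none of either list past the test. Their part in the members' values was not tested. The difference between the crush responses had a median of -0.02 over the members.

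The lean was seen in the medians of complexes I, III, IV and V, and those of complex II lay near 0. In Cre-positive retinas the median crush change was -0.08 for complex I, 0.01 for complex II, -0.10 for complex III, -0.10 for complex IV and -0.11 for complex V. All 8 complex III genes, 31 of 35 complex I genes, 16 of 18 complex IV genes and 15 of 17 complex V genes were below 0, against 1 of 4 complex II genes. In Cre-negative retinas the medians were -0.04, -0.01, -0.05, -0.05 and -0.05 in the order of the complexes. With 4 genes, complex II gives little to compare, and differences between complexes were not tested.

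**Figure D2:**
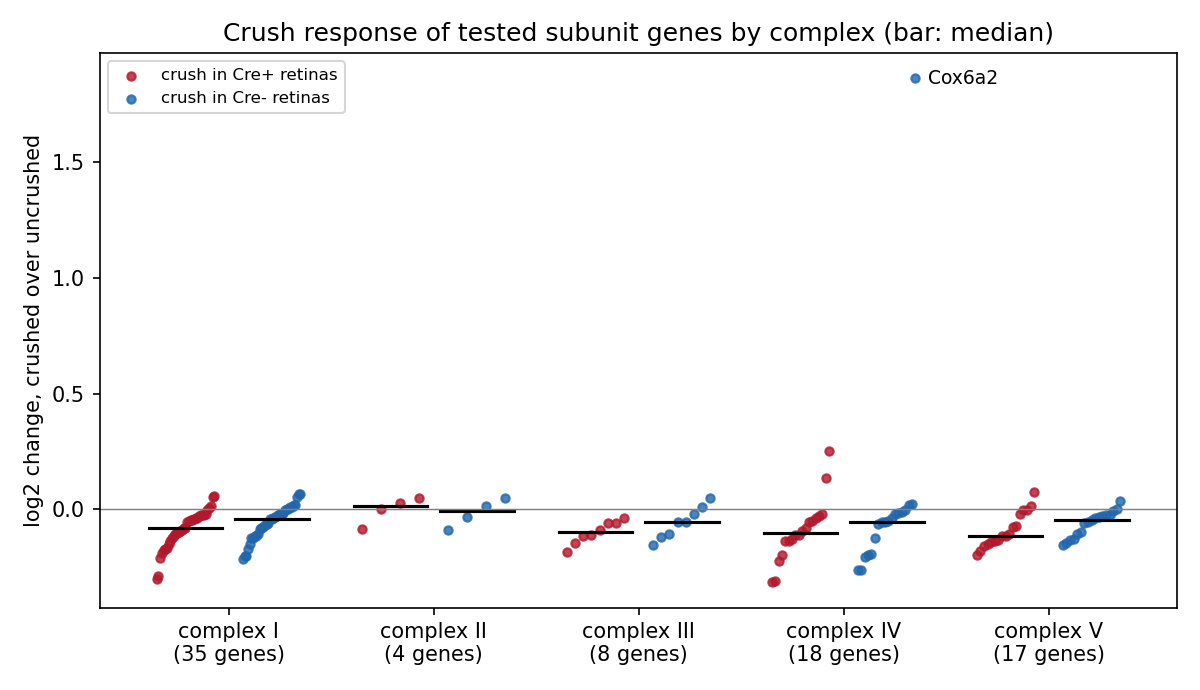
Log2 change on crush of the 82 tested subunit genes, by complex, in Cre-positive (red) and Cre-negative (blue) retinas; each point is a gene, sorted within its complex, and black bars are medians. Cox6a2 in Cre-negative retinas (1.86) stands apart, and the other changes lie between -0.32 and 0.25.

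On the level of arrays the groups overlapped. The median log2 ratio over the 82 members was 0.63, 0.58, 0.56, 0.63 and 0.55 in Cre-positive crushed and 0.59, 0.71, 0.77, 0.74 and 0.62 in Cre-positive uncrushed retinas. It was 0.59, 0.60 and 0.51 in Cre-negative crushed and 0.62, 0.54, 0.68 and 0.72 in Cre-negative uncrushed retinas. In both genotypes the lowest uncrushed arrays fell among the crushed ones. Many members moved together from array to array: 41 of 82 had their lowest Cre-positive crushed value on replicate 3, where 26.8% of all genes had theirs, and 34 of the 81 measured on all 5 arrays had their lowest Cre-positive uncrushed value on replicate 1, beside 22.2% of all genes. In the Cre-negative uncrushed group, 46 of 82 were lowest on replicate 2, beside 28.0% of all genes.

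**Figure D3:**
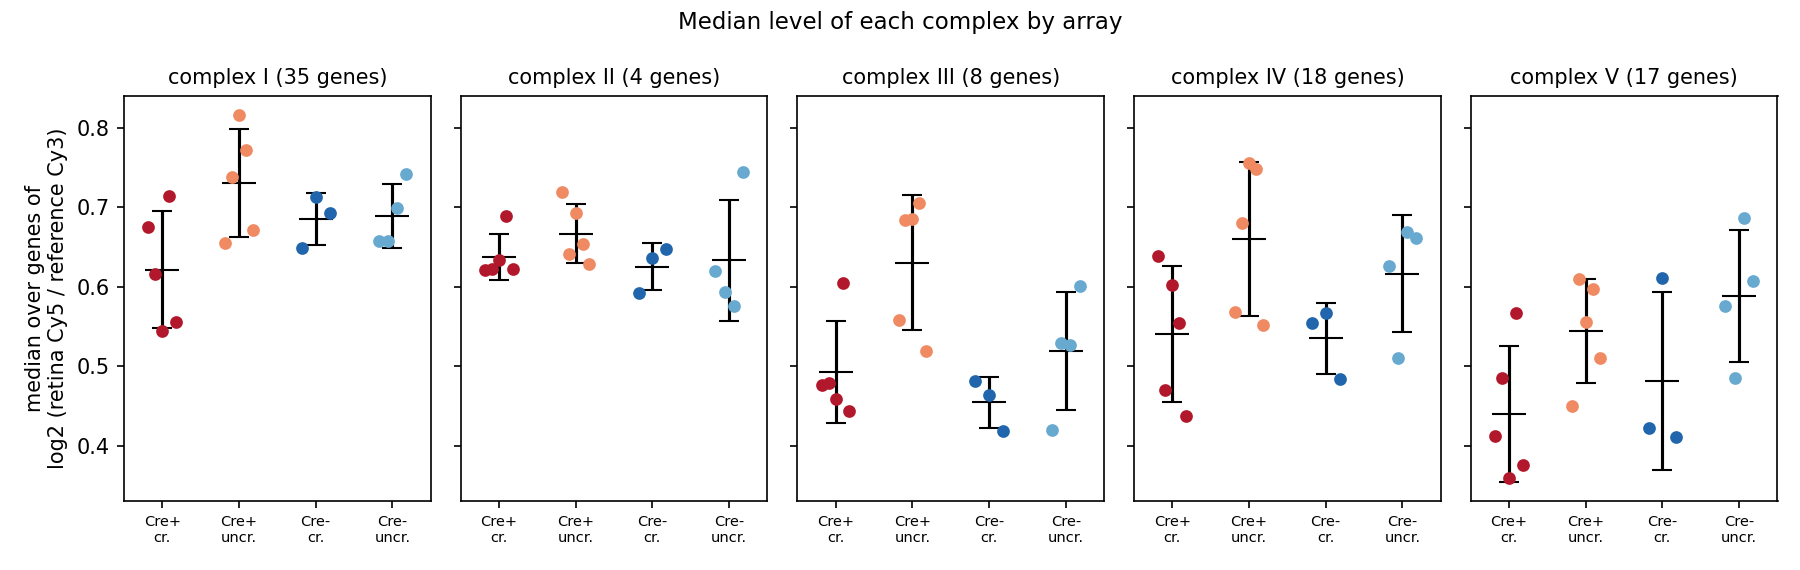
Median log2 ratio over the genes of each complex on every array, by group (cr., crushed; uncr., uncrushed); points are arrays, and bars are the mean and SD of a group. For complex V the arrays lie at 0.36 to 0.57 in Cre-positive crushed and 0.45 to 0.61 in Cre-positive uncrushed retinas, and groups overlap in every complex.

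In complex I, Ndufa12, an accessory subunit of the matrix arm, fell after crush in Cre-negative retinas. Its log2 ratio was 0.35, 0.44, 0.32, 0.44 and 0.32 in Cre-positive crushed and 0.36, 0.40, 0.38, 0.28 and 0.41 in Cre-positive uncrushed retinas. In Cre-negative retinas it was 0.25, 0.22 and 0.27 after crush and 0.46, 0.46, 0.47 and 0.44 without it. The Cre-negative groups did not overlap, and the Cre-positive groups lay mostly between them and overlapped each other. In Cre-positive retinas the crush change was 0.01 (adjusted p = 0.969), while in Cre-negative retinas Ndufa12 fell by 0.21 on the log2 scale (SE 0.05, 95% interval -0.32 to -0.11, adjusted p = 0.0293). The difference between the crush responses, 0.22, did not pass (adjusted p = 0.269). The call was lost when any of the 7 Cre-negative arrays was left out (adjusted p = 0.0507 to 0.114). Of 29 alternative settings 17 kept it. These include the 10 that left out 1 Cre-positive array, which cannot move the estimate in Cre-negative retinas.

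Other complex I genes at the ends of the range did not pass. Ndufa1, a small membrane-arm subunit needed for assembly, stood at 1.59, 1.53, 1.24, 1.73 and 1.54 in Cre-positive crushed and 1.60, 1.79, 1.96, 2.03 and 1.69 in Cre-positive uncrushed retinas. It was 1.74, 1.95 and 1.68 in Cre-negative crushed and 1.74, 1.51, 1.78 and 1.86 in Cre-negative uncrushed retinas. The crushed arrays lay mostly below the uncrushed ones in Cre-positive retinas and among them in Cre-negative retinas. The crush change was -0.29 (95% interval -0.49 to -0.08, adjusted p = 0.289) in Cre-positive and 0.07 (-0.18 to 0.32) in Cre-negative retinas. Their difference of -0.35 had an unadjusted p of 0.0324 and an adjusted p of 0.551. Ndufa10, another accessory subunit, changed by -0.30 in Cre-positive retinas (95% interval -0.58 to -0.02) and by -0.20 in Cre-negative retinas (-0.54 to 0.14). Ndufb7, of the membrane arm, had the highest complex I value on crush in Cre-negative retinas, at 0.07 (-0.06 to 0.20). Ndufa3 stood highest of this complex in Cre-positive minus Cre-negative crushed retinas, at 0.20 (0.05 to 0.35, adjusted p = 0.209).

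Complex II oxidizes succinate and is also an enzyme of the tricarboxylic acid cycle. Sdha, its flavoprotein, stood at 2.02, 2.09, 2.15, 2.02 and 2.01 in Cre-positive crushed and 2.13, 1.94, 2.03, 1.87 and 2.07 in Cre-positive uncrushed retinas. It was 2.09, 2.01 and 1.93 in Cre-negative crushed and 2.08, 2.16, 2.02 and 2.14 in Cre-negative uncrushed retinas. All 4 groups overlapped, with crush changes of 0.05 (95% interval -0.07 to 0.17) in Cre-positive and -0.09 (-0.23 to 0.05) in Cre-negative retinas.

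In complex III, the core protein gene Uqcrc2 was at 0.31, 0.26, 0.17, 0.52 and 0.28 in Cre-positive crushed and 0.46, 0.64, 0.41, 0.64 and 0.32 in Cre-positive uncrushed retinas. In Cre-negative retinas it was 0.27, 0.21 and 0.36 after crush and 0.31, 0.20, 0.37 and 0.47 without it. The highest values came from Cre-positive uncrushed arrays, and the groups overlapped. Its crush change was -0.18 in Cre-positive retinas (95% interval -0.34 to -0.03, adjusted p = 0.442) and -0.05 (-0.25 to 0.14) in Cre-negative retinas.

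The isoform families of complex IV were set side by side over the groups. Cox4i2, the lung form of subunit 4, and Cox4i1, its general form, changed little. On crush Cox4i2 differed by -0.03 (95% interval -0.14 to 0.07) in Cre-positive and by -0.12 (-0.25 to 0.01) in Cre-negative retinas, and Cox4i1 by -0.08 (-0.24 to 0.08) in Cre-positive and by -0.04 (-0.23 to 0.15) in Cre-negative retinas. Cox6b2, the testis form of subunit 6B, was the lowest named member on crush in Cre-negative retinas together with Cox7a1, but its arrays spread widely. It was at 1.19, 0.88, 0.91, 1.00 and 1.39 in Cre-positive crushed and 1.33, 1.42, 0.98, 1.08 and 0.81 in Cre-positive uncrushed retinas. In Cre-negative retinas it was 1.45, 0.84 and 0.51 after crush and 1.08, 1.34, 0.88 and 1.48 without it. The groups overlapped almost wholly, and its change of -0.26 in Cre-negative retinas had an interval of -0.67 to 0.15. The general form Cox6b1 changed by -0.14 (-0.31 to 0.03) in Cre-positive and by -0.20 (-0.40 to 0.01) in Cre-negative retinas.

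Subunit 7A has a heart and muscle form, Cox7a1, a general form, Cox7a2, and the related Cox7a2l, whose protein helps join complexes into supercomplexes. Cox7a1 was at 0.66, 0.41, 0.60, 0.57 and 0.46 in Cre-positive crushed and 0.58, 0.52, 0.98, 0.72 and 0.58 in Cre-positive uncrushed retinas. It was 0.24, 0.36 and 0.23 in Cre-negative crushed and 0.55, 0.50, 0.54 and 0.57 in Cre-negative uncrushed retinas. The Cre-negative crushed arrays were the lowest of all. Its change on crush in Cre-negative retinas, -0.26 (95% interval -0.45 to -0.07), did not pass (adjusted p = 0.179), nor did the difference of 0.27 between Cre-positive and Cre-negative crushed retinas (0.09 to 0.45, adjusted p = 0.159). Cox6a2 and Cox7a1, both heart and muscle forms, thus had crush values of opposite sign in Cre-negative retinas, and only that of Cox6a2 passed the test. Cox8b, the third such form, differed by 0.14 (-0.31 to 0.58) on crush in Cre-positive and by 0.02 (-0.52 to 0.55) in Cre-negative retinas, and Cox8a, its general partner, by -0.05 in both.

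Cox7a2 and Cox7c, another small subunit, had the lowest crush values of all members in Cre-positive retinas. Cox7a2 was at -0.45, -0.50, -1.03, -0.38 and -0.78 in Cre-positive crushed and -0.73, -0.22, -0.18, -0.13 and -0.34 in Cre-positive uncrushed retinas. In Cre-negative retinas it was -0.50, -0.10 and -0.56 after crush and -0.29, -0.56, -0.25 and -0.24 without it. Its groups overlapped, and its change was -0.31 (95% interval -0.59 to -0.03, adjusted p = 0.473) in Cre-positive and -0.06 (-0.39 to 0.28) in Cre-negative retinas. Cox7c followed the same arrays, with -0.46, -0.48, -1.04, -0.25 and -0.73 in Cre-positive crushed and -0.66, -0.20, -0.10, -0.06 and -0.35 in Cre-positive uncrushed retinas. Its Cre-negative values were -0.38, -0.20 and -0.44 after crush and -0.28, -0.55, -0.23 and -0.21 without it. For both genes replicate 3 of the Cre-positive crushed arrays was the lowest of all. The Cox7c change of -0.32 (adjusted p = 0.454) came from the brightest of 3 probes, and the probes spanned -0.32 to 0.03. Cox7b changed by -0.22 (-0.39 to -0.05, adjusted p = 0.347) in Cre-positive and by -0.01 (-0.21 to 0.20) in Cre-negative retinas, and Cox7a2l by -0.03 in Cre-positive and by 0.02 in Cre-negative retinas.

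Ndufa4 and Ndufa4l2, a hypoxia-inducible paralog, also showed no crush change past the test. Ndufa4 changed by -0.20 in Cre-positive retinas (95% interval -0.39 to -0.01, adjusted p = 0.499) and by -0.05 (-0.28 to 0.18) in Cre-negative retinas. Ndufa4l2 changed by -0.02 (-0.17 to 0.13) in Cre-positive and by -0.0021 (-0.18 to 0.18) in Cre-negative retinas.

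**Figure D4:**
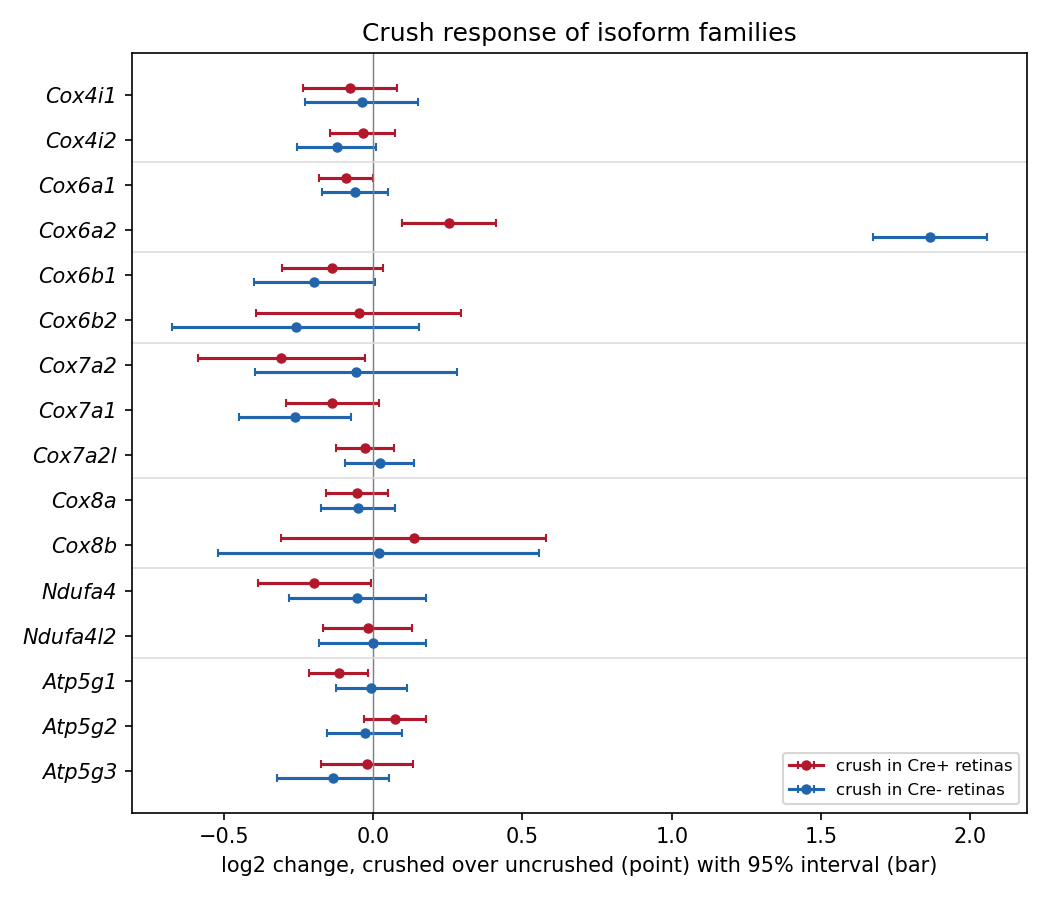
Log2 change on crush with its 95% interval for the isoform families of complex IV and the c subunit of ATP synthase, in Cre-positive (red) and Cre-negative (blue) retinas. Cox6a2 rises by 1.86 in Cre-negative retinas, while the interval of Cox6a1 in the same retinas runs from -0.17 to 0.05.

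Cox6c, a further complex IV subunit, had the largest spread of all members, with a within-group SD of 0.65 beside a median of 0.09 over members and 0.11 over all genes. Its arrays fell into separate clusters within each group. Values lay between 0.00 and 0.19 on 8 arrays and between 1.15 and 1.42 on 9 arrays. The higher cluster held 2 of 5 Cre-positive crushed, 2 of 5 Cre-positive uncrushed, 2 of 3 Cre-negative crushed and 3 of 4 Cre-negative uncrushed arrays. By slide, all 4 arrays of slide 3 and both of slide 5 were in the higher cluster and all 4 of slide 2 in the lower, while slides 1 and 4 held both. Its group differences, from -0.37 to -0.11 over the crush and Cre comparisons, had wide intervals, such as -1.12 to 0.71 for crush in Cre-negative retinas. Within slides the crush difference was -0.17, -0.07, -0.11 and -0.03 in Cre-positive and -0.09, -0.17 and -0.08 in Cre-negative retinas. The value of slide 1, -0.17, came from averages over arrays of both clusters in each state. The Cre-positive minus Cre-negative difference between uncrushed retinas was 0.05, -0.03 and -1.23 on slides 2, 3 and 4.

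In complex V, the genes Atp5g1, Atp5g2 and Atp5g3 encode the same mature c subunit of the rotor ring behind different import sequences. On crush Atp5g1 changed by -0.12 (95% interval -0.21 to -0.02, adjusted p = 0.439) in Cre-positive retinas and by -0.01 (-0.13 to 0.11) in Cre-negative retinas. Atp5g2 was among the highest members in Cre-positive retinas, at 0.07 (-0.03 to 0.18), and changed by -0.03 (-0.15 to 0.10) in Cre-negative retinas. Atp5g3 changed by -0.02 (-0.18 to 0.13) in Cre-positive and by -0.13 (-0.32 to 0.05) in Cre-negative retinas. None of the 3 genes passed, and both signs occurred among them.

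Without crush, the genotypes did not differ past the test in any member. Between Cre-positive and Cre-negative uncrushed retinas 0 of 82 members passed in limma, beside 0.0118% of all genes, and 1 was higher and 1 lower at an unadjusted p under 0.05, beside 3.30% and 2.29% of all genes. The members' median was 0.04, with 62 of 82 above 0, beside 0.0071 over all genes. Its highest values were those of Cox8b at 0.39 (95% interval -0.08 to 0.86), Cox6a2 at 0.25 and Uqcrc2 at 0.15, and its lowest those of Cox6c, Ndufa12 at -0.09 and Sdha at -0.09.

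Between Cre-positive and Cre-negative crushed retinas 1 of 82 passed, Cox6a2, beside 1.15% of all genes. At an unadjusted p under 0.05, 8 were higher and 4 lower, beside 7.68% and 6.20% of all genes, and the members' median was 0.02. Cox8b had the highest value at 0.51 (95% interval -0.0022 to 1.02, adjusted p = 0.362), with arrays at 2.34, 1.64, 1.85, 1.80 and 2.55 in Cre-positive crushed and 1.21, 1.75 and 1.62 in Cre-negative crushed retinas. These groups overlapped. The difference between crush responses was past the test for 1 of 82 members, again Cox6a2, beside 0.418% of all genes, and at an unadjusted p under 0.05 it was 1 higher and 3 lower, beside 4.24% and 4.17%. Its highest values were Ndufa12 at 0.22, Cox6b2 at 0.21 and Sdha at 0.14, none of them past the test.

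Against the reference RNA, a pool from other mouse sources, most subunit genes were more abundant in the retina. The log2 ratio was above 0 for 66 of 82 members in Cre-positive crushed, 70 in Cre-positive uncrushed, 67 in Cre-negative crushed and 68 in Cre-negative uncrushed retinas, with medians of 0.57, 0.69, 0.56 and 0.65 in the same order. Over all 25374 genes tested, 14035 to 14118 were above 0 by group, and each group's median was 0.08. By these log2 ratios Ndufa4 was highest in each group and Cox6a2 lowest. Ndufa4 stood at 2.38 in Cre-positive crushed, 2.57 in Cre-positive uncrushed, 2.55 in Cre-negative crushed and 2.61 in Cre-negative uncrushed retinas. The reference signal of Cox8b was dim, with a mean processed Cy3 signal of 55, 46, 35 and 44 in the same order. Its mean processed Cy5 signal was 817, 719, 456 and 487. The offset used in background correction pulls dim ratios toward 0, so the rank of Ndufa4 above Cox8b may depend on it. Without a dye swap the log2 ratios can hold a dye bias of each probe. They order ratios rather than amounts of RNA between genes.

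Other genes of the pathway were read from lists of assembly factors, regulators of mitochondrial biogenesis, the tricarboxylic acid cycle, carriers and glycolysis. The list of carriers and porins also held Cycs, Cyc1 and Ndufab1, of which Cyc1 and Ndufab1 are subunits that the symbol rule does not match. Of 43 tested assembly factors 1 passed after crush in each genotype, beside 0.769% of all genes in Cre-positive and 2.15% in Cre-negative retinas. It was Ndufaf6, which is needed for complex I assembly. It rose by 0.26 in Cre-positive (adjusted p = 0.0204) and by 0.29 in Cre-negative retinas (adjusted p = 0.0182). None of the 14 regulators, 14 tricarboxylic acid cycle genes or 9 genes of the carrier and porin list passed in any comparison. Their median crush changes were 0.0031, -0.02 and -0.09 in Cre-positive and -0.02, -0.07 and -0.09 in Cre-negative retinas, in that order. Of the 9 genes of the carrier and porin list, 8 were below 0 in Cre-positive and 7 in Cre-negative retinas. Of 17 glycolysis genes none passed on crush, with a median of -0.07 in Cre-positive and -0.18 in Cre-negative retinas. At an unadjusted p under 0.05 in limma, 3 were lower in Cre-positive and 9 in Cre-negative retinas, beside 3.13% and 5.81% of all genes. In each genotype 1 was higher, beside 6.42% and 7.56%. Between Cre-positive and Cre-negative crushed retinas 1 of 17 passed, beside 1.15% of all genes. It was Ldhb, a lactate dehydrogenase subunit, which was higher in the Cre-positive ones by 0.29 (adjusted p = 0.0386).

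Promoter windows from RefSeq (GRCm38.p6), 250 bases before to 50 after the start, were found for 68 of the 84 members, and Cox6a2 was not among them. They were searched on both strands for NRF1, ETS and CRE sites, whose factors are known to drive respiratory genes. AP-1 and ATF4-CEBP motifs and the TATA box were searched as well. The NRF1 core, GCGC and GCGC with any 2 bases between them, was in 17 of 68 member windows and in 6.43% of all 27025 windows. The ETS core CCGGAAG, which GABPA binds, was in 16 of 68 and in 9.12% of all, and the CRE core TGACG in 25 of 68 and in 21.02% of all. The AP-1 motif TGANTCA, bound by dimers of JUN proteins, was in 7 of 68 and in 7.93% of all, the ATF4-CEBP motif TGATGNAA in 0 of 68 and in 4.06% of all, and the TATA box TATAAA in 8 of 68 and in 14.2% of all. The median GC content was 57.3% in member windows and 52.7% in all windows, and its part in these counts was not tested. The motifs were counted separately where they overlapped, and a match is a run of letters, not a bound site. The windows below are those of Cox6a1, the general partner of Cox6a2, of Ndufa12, the member that fell, and of the pair Cox8a and Cox8b, whose general and muscle forms differ in these motifs. Capitals mark the NRF1, ETS, CRE and TATA motifs in either orientation.
Cox6a1 (chr5:115348909-115349208, minus strand): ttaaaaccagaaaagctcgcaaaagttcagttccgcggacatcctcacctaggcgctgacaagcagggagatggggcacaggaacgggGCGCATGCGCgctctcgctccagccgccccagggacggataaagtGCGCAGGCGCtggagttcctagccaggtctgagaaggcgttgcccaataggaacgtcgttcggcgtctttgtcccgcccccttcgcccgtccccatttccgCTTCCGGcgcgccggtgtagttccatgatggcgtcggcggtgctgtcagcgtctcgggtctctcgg
Ndufa12 (chr10:94198785-94199084, plus strand): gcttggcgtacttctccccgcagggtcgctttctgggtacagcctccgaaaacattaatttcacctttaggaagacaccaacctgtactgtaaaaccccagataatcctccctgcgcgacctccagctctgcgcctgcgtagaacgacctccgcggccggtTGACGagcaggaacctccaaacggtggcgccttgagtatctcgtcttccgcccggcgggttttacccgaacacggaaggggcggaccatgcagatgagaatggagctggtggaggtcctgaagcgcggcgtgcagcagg
Cox8a (chr19:7217567-7217866, minus strand): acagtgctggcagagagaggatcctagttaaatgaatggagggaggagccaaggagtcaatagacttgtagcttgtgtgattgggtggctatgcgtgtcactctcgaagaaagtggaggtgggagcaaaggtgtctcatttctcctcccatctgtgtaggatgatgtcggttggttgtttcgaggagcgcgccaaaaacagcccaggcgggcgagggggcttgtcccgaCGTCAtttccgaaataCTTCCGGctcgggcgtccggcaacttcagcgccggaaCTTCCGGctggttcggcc
Cox8b (chr7:140900397-140900696, minus strand): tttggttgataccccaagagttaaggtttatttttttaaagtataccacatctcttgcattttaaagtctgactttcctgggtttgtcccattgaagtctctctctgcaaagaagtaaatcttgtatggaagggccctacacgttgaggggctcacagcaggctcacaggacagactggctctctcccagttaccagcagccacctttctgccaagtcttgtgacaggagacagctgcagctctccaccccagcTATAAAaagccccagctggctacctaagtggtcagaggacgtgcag
Cox6a1 held 2 NRF1 cores and 1 ETS core. Ndufa12 held 1 CRE core and neither an NRF1 nor an ETS core. Cox8a held 2 ETS cores and 1 CRE core, and Cox8b a TATA box alone. The other general and muscle pair with windows, Cox7a2 and Cox7a1, held none of the motifs searched in either gene. Of the 68 windows, 29 held an NRF1 or an ETS core and 4 held both.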

How the data were processed

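Scanner files of 18 2-colour Agilent arrays were used. Per the file headers, Agilent Feature Extraction 10.7.3.1 produced the deposited spot and local background intensity of each dye, in linear scanner units, and the deposited processed signals, which are intensity values after its own background and dye correction. The deposited flags for spots well above background, saturated or outlying are in the same files. The authors deposited a further table with 1 log2 value per probe and array. Its scale is unstated, limma is named as a tool per the submitters' processing notes, and its values correlated at r of at least 0.9996 with the ratios computed here.

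R 4.3.3 and limma 3.58.1 gave the log2 ratios through normexp correction of median spot signals (offset 50, which pulls dim ratios toward 0), loess within arrays, and averaging of spots of a probe. The plan left the spot statistic open, and the files used here hold medians. Probes were named through their RefSeq accession. Each gene was represented by its brightest probe with Cy5 well above background on at least 3 arrays. A model with 4 group means was fitted to 17 arrays (13 residual degrees of freedom, 49 missing values, which the fit dropped), 5 contrasts were tested two-sided, and p-values were adjusted by the Benjamini-Hochberg method over all 25374 genes. Adjusted p-values in the report and closing section are limma's. The method was tested on simulated data. Members, gene lists and alternatives were chosen with earlier results of these data known. Named members were those past the test, the 3 highest and 3 lowest per contrast among members bright on every array, and the isoform families. Respiratory genes have many processed pseudogenes and near-identical copies, so a probe may read more than its gene. Arrays carry no replicate number, so replicates are numbered in accession order.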

Additional observations from a re-analysis of the deposited data

Results flagged for a closer look

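The crush response of Cox6a2 differed between genotypes by -1.61 on the log2 scale (Cre-positive minus Cre-negative). The array with disagreeing labels, from a Cre-negative mouse, had a Cox6a2 log2 ratio of -2.52, within the -2.59 to -2.39 of the Cre-negative crushed arrays and above the -4.22 of the highest Cre-negative uncrushed array. Its mean over ganglion cell markers was 2.56, beside 2.57 to 2.68 on Cre-negative crushed and 3.40 to 3.52 on Cre-negative uncrushed arrays. Its Ndufa4l2 ratio of 0.70 was above the highest Cre-negative values, 0.535 crushed and 0.528 uncrushed, and below the 0.71 of a Cre-positive uncrushed array. These values were not used to assign the array to a group.

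In 78 group-by-gene sets of 4 or 5 arrays, 6 held an array far from the others by Dixon's test, which chance gives in about 1 of 20. They were Cox6b1 on Cre-positive uncrushed replicate 1 (-0.76, nearest -0.47), Cox8b on Cre-positive uncrushed replicate 3 (2.73, nearest 1.78), Atp5g1 on Cre-positive crushed replicate 2 (0.22, nearest 0.35), Cox7a2 on Cre-negative uncrushed replicate 2 (-0.56, nearest -0.29), Ndufa4l2 on Cre-negative uncrushed replicate 4 (0.42, nearest 0.52) and Cox6c on Cre-negative uncrushed replicate 2 (0.0928, nearest 1.23).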

How the results depend on the processing

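Over 29 alternative settings the rise of Cox6a2 on crush in Cre-negative retinas ranged from 1.5005 to 2.36 (adjusted p = 2.43e-11 to 0.0416) and passed in all 29. Its lower level in Cre-positive crushed retinas ranged from -1.71 to -1.30 and passed in all 29. The difference between crush responses ranged from -1.96 to -1.25 and passed in 28 of 29. It was lost (adjusted p = 0.532) when the array with disagreeing labels was added to the uncrushed group, where 0 genes passed that comparison and 0 members. The labels carry no replicate numbers that tie arrays across groups, so none were used as a block, while slides shared by groups were. The members' median stayed below 0 on crush under all 29, at -0.10 to -0.06 with Cre and -0.07 to -0.02 without Cre. Of 2929 values for named genes under these settings, 2915 stayed on the same side of the threshold, 13 lost their call and 1 gained one. Only results of Cox6a2 and Ndufa12 had a call to lose, so most of these values had not passed to begin with. The sign differed from the reported one in 130 values, of 40 among 101 results, and none of these passed in either setting (lowest adjusted p = 0.321).

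For crush in Cre-negative retinas the count of members was 1 in place of 2, Cox6a2 alone, with processed signals (Ndufa12 -0.16), the Cy5 channel alone (Ndufa12 -0.11, adjusted p = 0.738), no filter on dim probes, the slide as a block (Ndufa12 -0.20, adjusted p = 0.0964) or the disputed array as uncrushed. Leaving out single arrays gave 0 to 1 members on crush with Cre and 1 to 2 on crush without Cre. Over all genes it gave 110 to 233 calls for crush with Cre, 327 to 679 for crush without Cre, 81 to 121 for the interaction, 1 to 3 for Cre in uncrushed and 167 to 326 in crushed retinas. By array, crush in Cre-positive retinas gave 129 without crushed replicate 5, and 110 and 116 without uncrushed replicate 2 or 5. Crush in Cre-negative retinas gave 327 and 332 without crushed Cre-negative replicate 1 or 3. Cre in crushed retinas gave 194 and 167 without crushed Cre-negative replicate 1 or 2. The main counts over all genes in the same order were 195, 546, 106, 3 and 293. Processed signals gave 69 for the interaction and 195 for Cre in crushed retinas. The slide as a block gave 1 and 145 for Cre in uncrushed and crushed retinas, and array weights gave 1187 for crush in Cre-negative retinas and 533 for Cre in crushed retinas. Requiring signal on all arrays gave 0 for Cre in uncrushed retinas. The disputed array as uncrushed gave 10 for crush with Cre, 73 for crush without Cre and 116 for Cre in crushed retinas. Added to the crushed group instead, it gave 190, 742 and 435 in the same order, and 122 for the interaction. Without the cornea-rich and the lens-rich array, an alternative chosen after seeing the data, crush in Cre-positive retinas gave 120 and Cre in uncrushed retinas 1. The causes of these shifts were not tested.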
